A study of Mus musculus with 48 samples.

Results

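Genes of iron and heme handling were followed through the first week after permanent middle cerebral artery occlusion (MCAO) in the mouse brain. The set was given by name and holds 10 genes, *Hmox1*, *Blvra*, *Blvrb*, *Fth1*, *Ftl1*, *Trf*, *Tfrc*, *Slc11a2*, *Slc40a1* and *Cp*, of 46983 gene identifiers counted. All 10 matched a single row of the count tables by symbol and passed the filter on low counts, as did 19970 genes in all. The mice were 3 months old, and the study's methods describe C57Black/6 males. The study's methods describe bulk RNA from the injured cortical region, affected and unaffected tissue together. Its results instead speak of nearly a whole hemisphere on the lesion side, so the extent of other tissue is not settled. MCAO mice had the artery coagulated and cut, and sham mice, operated on without closing the artery, were sampled at the same times, 3 h, 12 h, 24 h, day 3 and day 7. Control libraries came from intact cortex. The control and each sham group had 4 libraries, MCAO had 4 libraries at 24 h and 5 at each other time, and replicates are named by the letters of the labels.

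The libraries were made by priming on the poly(A) tail (QuantSeq), so each messenger RNA yields reads near its 3′ end, and they held 1522668 to 2826735 counts on genes. Levels below are CPM, counts scaled to the library total after TMM normalization. A gene was called when edgeR's quasi-likelihood test gave a Benjamini-Hochberg adjusted p under 0.01 over all 19970 genes and the log2 fold change exceeded 0.58 in either direction. The labels do not tie libraries to mice. The design text of the series names fewer hemispheres per time than there are libraries, while the study's own text gives at least as many mice per condition as the smallest group has libraries. The p-values measure the spread between libraries, and are too small if some libraries share a mouse. Neuron and astrocyte markers were detected in every group, which does not tell cortex from other brain regions. Libraries differed within groups. MCAO day 3 replicate A had the lowest microglia marker sum of its group, 628 CPM against 1179 to 2231 in the other 4 libraries. MCAO day 7 replicate C had summed fibroblast markers of 5454 CPM and macrophage and monocyte markers of 4113 CPM, against at most 480.3 and 203 CPM in the other 4 libraries of that group.

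Heme released from hemoglobin and other heme proteins is opened by heme oxygenase (*Hmox1*), which frees iron, carbon monoxide and biliverdin. Biliverdin reductase (*Blvra*) turns this biliverdin into bilirubin. *Blvrb* is also classed as a biliverdin reductase, and whether it acts on the *Hmox1* product was not examined here. Iron enters cells bound to transferrin (*Trf*) through the transferrin receptor (*Tfrc*), leaves the endosome through the divalent metal transporter (*Slc11a2*), is stored in ferritin (*Fth1*, *Ftl1*) and leaves cells through ferroportin (*Slc40a1*) with the help of the ferroxidase ceruloplasmin (*Cp*). In the brain, oligodendrocytes are a main source of transferrin messenger RNA, and microglia and macrophages take up red cells and store their iron.

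Cells set several of these proteins after transcription. Iron regulatory proteins bind a hairpin, the iron-responsive element, and block translation when it lies in a 5′ UTR or protect the messenger RNA when it lies in a 3′ UTR. The counts measure RNA and not translation. Hairpins that matched a strict pattern are shown, and members without a match may still carry this control. They were found by searching annotated UTRs (GRCm38, Gencode vM21, transcript strand) for a C, 5 bases, the loop CAGTGN and 5 bases that pair with those before the loop, G-T pairs allowed. Capitals mark the bulged C and the loop.
*Fth1*, 5′ UTR in exon 1 of 4, chr19:9982732-9982760, + strand: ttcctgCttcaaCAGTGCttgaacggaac
*Ftl1*, 5′ UTR in exon 1 of 4, chr7:45459779-45459807, − strand: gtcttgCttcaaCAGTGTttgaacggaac
*Slc40a1*, 5′ UTR in exon 1 of 8, chr1:45925465-45925493, − strand: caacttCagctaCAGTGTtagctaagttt
*Tfrc*, 3′ UTR in exon 19 of 19, chr16:32631219-32631247, + strand: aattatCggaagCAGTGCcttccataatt
*Tfrc*, same exon, chr16:32631598-32631626: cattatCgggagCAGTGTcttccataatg
*Tfrc*, same exon, chr16:32631663-32631691: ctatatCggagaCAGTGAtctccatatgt
*Tfrc*, same exon, chr16:32631710-32631738: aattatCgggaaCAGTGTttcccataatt
Both ferritin genes and *Slc40a1* carry the hairpin in exon 1, and the 4 *Tfrc* hairpins lie within 1 exon. The same pattern was found in a 5′ UTR of 28 of 20862 genes (0.134%) and in a 3′ UTR of 127 of 20946 genes (0.606%). A match is a description and no match in the other members says only that this pattern was not found.

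Against sham of the same time, most calls of the set were made on day 3. No member was called at 3 h, when 0.110% of all genes were called in either direction. At 3 h, 2 of 10 members had an unadjusted p under 0.05, as did 1688 of all 19970 genes, and DESeq2 called 0 members. At 12 h 1 member was called, *Hmox1*, against 0.411% of all genes (0.346% in that direction). At 24 h none was called, against 0.0901% of all genes, and DESeq2 called 0. There 4 members and 1757 of all genes had an unadjusted p under 0.05. On day 3, 5 of 10 members were called, all higher after MCAO (*Hmox1*, *Fth1*, *Cp*, *Blvrb* and *Trf*), against 4.02% of all genes and 3.76% in that direction. On day 7 1 member was called, *Ftl1*, against 3.50% of all genes (2.07% in that direction). The median log2 fold change of the 10 members was 0.21, −0.17, 0.12, 0.92 and 0.53 from 3 h to day 7, where the median of all genes lay between 0.00 and 0.06.

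Against control, the same *Hmox1* call was made at 12 h (0.856% of all genes called) and the same 5 members were called on day 3 (3.10% of all genes). No member was called at 3 h, 24 h or day 7, where 0.130%, 0.280% and 1.50% of all genes were called. In these 3 comparisons 3, 4 and 3 members had an unadjusted p under 0.05, as did 1827, 2199 and 2982 of all genes. DESeq2 called 0, 2 (*Hmox1* and *Slc40a1* at 24 h) and 0 members. Of all genes DESeq2 called 80, 120 and 463 there. The comparisons with sham and with control share the MCAO libraries. Sham against control gave no called member at any time, with edgeR or DESeq2. In these 5 comparisons 1, 1, 0, 0 and 3 members had an unadjusted p under 0.05, as did 736, 1084, 860, 731 and 1604 of all genes. The share of all genes called by edgeR was 0, 0.0351, 0.0100, 0 and 0%. DESeq2 called 0, 11, 14, 1 and 0 of all genes. The difference of the MCAO effect between neighbouring times was called for no member in any of the 4 steps, with edgeR or DESeq2. In edgeR 1, 2, 4 and 4 members had an unadjusted p under 0.05, as did 1421, 1015, 1762 and 3231 of all genes. At most 0.0100% of all genes were called. DESeq2 called 3, 3, 5 and 57 of all genes in these steps. The day 3 calls are thus differences from the day 3 sham and from control. Whether the MCAO effect on day 3 exceeded that at 24 h or on day 7 did not pass the test for any member.

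**Figure D1:**
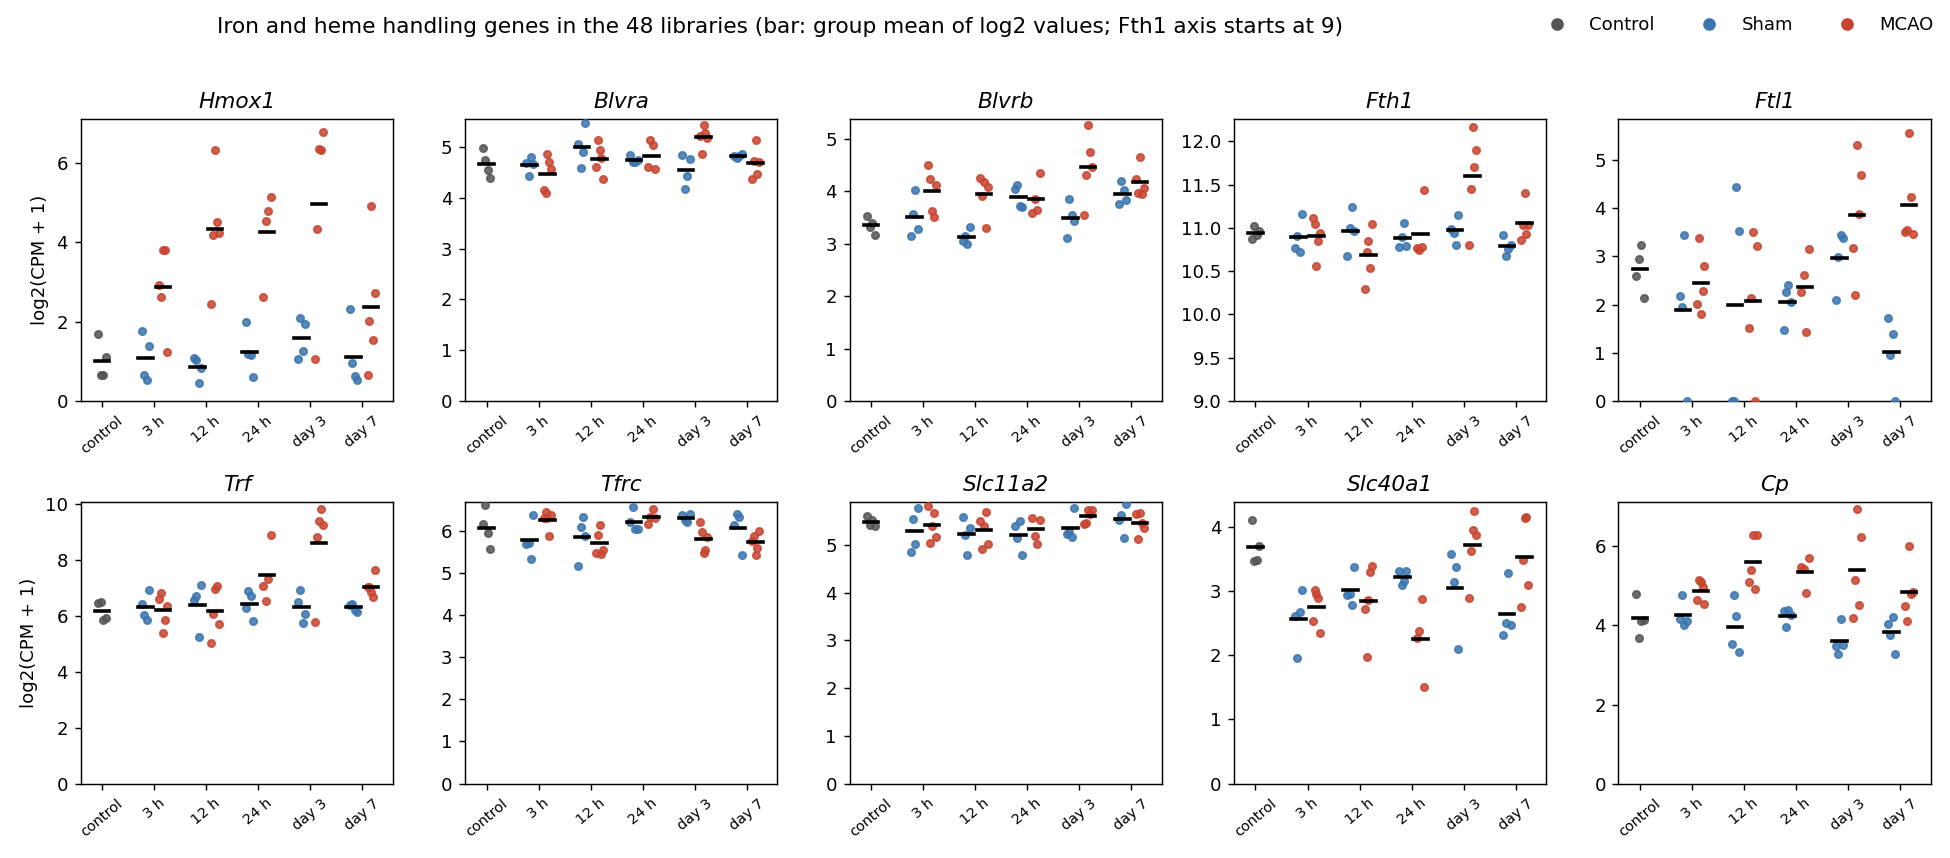
Level of each gene in the 48 libraries as log2(CPM + 1), by time, with control in grey, sham in blue and MCAO in red, 1 point per library and a bar at the group mean of the log2 values. On day 3 the MCAO points of *Hmox1*, *Trf*, *Fth1* and *Cp* spread upward while 1 MCAO library, replicate A, stays at the sham level for the first 3.

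*Hmox1* (chr8:75093621-75100589, + strand) was nearly silent without occlusion. Control libraries A to D measured 2.23, 0.562, 0.564 and 1.14 CPM, from 1 to 4 reads each, and no sham library exceeded 4.01 CPM. At 3 h the MCAO libraries measured 6.63, 5.20, 13.004, 12.9 and 1.37 CPM, and sham 2.37, 0.576, 0.448 and 1.64 CPM. Of the MCAO libraries 4 lay above all sham libraries and 1, replicate E, among them. Summed over libraries this was 86 reads against 11, a ratio of 6.10 after scaling to depth (95% interval 3.25 to 12.7, counting error only), and the log2 fold change was 2.54 ± 0.99 (SE, adjusted p = 0.418 in edgeR's quasi-likelihood test).

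At 12 h *Hmox1* measured 4.45, 17.0, 79.3, 21.8 and 17.9 CPM in MCAO and 1.12, 1.04, 0.370 and 0.779 CPM in sham. All 5 MCAO libraries were higher, and replicate C stood far above the rest. The log2 fold change was 5.04 ± 0.98 (adjusted p = 0.00278), from 266 reads against 7, a ratio of 33.9 (95% interval 16.2 to 85.2). The call was lost without MCAO replicate C (log2 fold change 4.15, adjusted p = 0.0271). It was also lost without any 1 of the 4 sham libraries (A to D in turn 5.19, 5.17, 4.76 and 5.03, adjusted p = 0.0115, 0.0146, 0.0251 and 0.0168). It was lost too when the fit held only the 2 groups compared (5.04, adjusted p = 0.0179). Against control at 12 h it was 4.55 ± 0.97 (adjusted p = 0.00408), a call lost without MCAO replicate C (3.66, adjusted p = 0.0309) or any 1 control library (A to D in turn 5.10, 4.34, 4.34 and 4.56, adjusted p = 0.0147, 0.0278, 0.0274 and 0.0192).

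At 24 h *Hmox1* measured 5.10, 22.0, 26.7 and 34.2 CPM in MCAO and 2.97, 1.26, 1.22 and 0.524 CPM in sham. The groups did not overlap, and the log2 fold change of 3.83 ± 0.97 did not pass the test (adjusted p = 0.0708). It passed without a filter on low counts (3.82, adjusted p = 0.00208) and with only the 2 groups in the fit (3.81, adjusted p = 0.00477). Against control it was 4.20 ± 1.00 (adjusted p = 0.0248, and 0.00462 in DESeq2), and it was called there under the same 2 settings too (adjusted p = 0.00053 and 0.00137). On day 3 MCAO measured 1.07, 19.0, 80.9, 79.6 and 109 CPM and sham 1.09, 3.23, 1.40 and 2.81 CPM. Replicate A was as low as sham, and the other 4 MCAO libraries were above every non-MCAO library. The log2 fold change was 4.76 ± 0.83 (adjusted p = 8.61e-05), from 616 reads against 19, a ratio of 28.7 (95% interval 18.2 to 47.9), and 5.07 without replicate A (adjusted p = 2.32e-06). Against control it was 5.61 ± 0.95 (adjusted p = 6.87e-05).

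By day 7 *Hmox1* lay above all non-MCAO libraries in 2 of 5 MCAO libraries, C and E. MCAO measured 0.577, 3.05, 29.2, 1.92 and 5.64 CPM and sham 4.01, 0.933, 0.545 and 0.456 CPM. The log2 fold change was 2.43 ± 1.00 (adjusted p = 0.123) and fell to 0.93 without replicate C (adjusted p = 0.678). *Hmox2*, the constitutive heme oxygenase, had group means between 91.9 and 131 CPM in all 11 groups and was called in no comparison with sham.

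Of the biliverdin reductases, *Blvrb* was called on day 3 and *Blvra* was not, and the difference between them was not tested. *Blvrb* (chr7:27447978-27466144, + strand), which also reduces flavins, measured 10.7, 19.0, 37.5, 25.9 and 21.2 CPM in MCAO on day 3 and 7.62, 13.4, 10.7 and 9.84 CPM in sham. Only replicate A fell within the sham range, and the log2 fold change was 1.14 ± 0.27 (adjusted p = 0.0032). The call was lost without MCAO replicate C (0.89, adjusted p = 0.0372) and without sham A, C or D (1.00, 1.16 and 1.11, adjusted p = 0.0283, 0.0108 and 0.0153). It was also lost with scaling to the spike-in RNAs (0.85, adjusted p = 0.05) and with only the 2 groups in the fit (1.12, adjusted p = 0.0486). Against control *Blvrb* was at 1.29 ± 0.28 (adjusted p = 0.00148), with a loss of the call without MCAO C (1.04, adjusted p = 0.0175) or control D (1.23, adjusted p = 0.0107), with spike-in scaling (0.93, adjusted p = 0.0318) and with only the 2 groups in the fit (1.29, adjusted p = 0.0311). At 12 h it was 0.94 ± 0.28 (adjusted p = 0.0769), with MCAO at 8.82 to 18.2 CPM and sham at 7.02 to 8.96 CPM.

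*Blvra* (chr2:127070665-127097084, + strand) measured 36.3, 28.0, 42.5, 37.6 and 35.3 CPM in MCAO on day 3 and 27.9, 17.1, 20.6 and 26.2 CPM in sham. All 5 MCAO libraries were higher, including replicate A, yet the log2 fold change of 0.64 ± 0.20 did not pass the test (adjusted p = 0.0303). At the other times its log2 fold change against sham lay between −0.26 and 0.11.

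Of the ferritins, *Fth1*, the heavy chain with ferroxidase activity (chr19:9980598-9985098, + strand), was among the well counted genes, with 200081 reads in 48 libraries. Its group means lay between 1677 and 2140 CPM in every group except MCAO day 3. On day 3 MCAO measured 1784, 2787, 4576, 3333 and 3803 CPM and sham 2033, 1963, 1782 and 2265 CPM. The 4 libraries other than A exceeded every non-MCAO library, and the log2 fold change was 0.70 ± 0.17 (adjusted p = 0.00582). Its call was the least stable of the day 3 calls. It was lost without MCAO replicate C (0.54, adjusted p = 0.0531), D (0.69, 0.0113) or E (0.63, 0.0262), and without any 1 sham library (A to D in turn 0.70, 0.68, 0.64 and 0.75, adjusted p = 0.0196, 0.0219, 0.0326 and 0.0102). With scaling to the spike-in RNAs it was 0.41 (adjusted p = 0.147), where the median of all genes moved to −0.22, and with only the 2 groups in the fit 0.68 (adjusted p = 0.0613). Without replicate A it was 0.85 (adjusted p = 0.000121). Against control it was 0.72 ± 0.17 (adjusted p = 0.00485), and that call was lost without MCAO C or E (0.57 and 0.66, adjusted p = 0.0455 and 0.0218) and without any 1 control library (0.70, 0.75, 0.72 and 0.73, adjusted p = 0.0232, 0.0131, 0.019 and 0.0173). The same call was lost with spike-in scaling (0.36, adjusted p = 0.191) and with only the 2 groups in the fit (0.73, adjusted p = 0.0523). At 12 h it was −0.27 ± 0.17 (adjusted p = 0.487).

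*Ftl1*, the light chain (chr7:45457944-45459884, − strand), could be counted only in part. It collected 748 reads in 48 libraries, and 58.5% of the windows of 85 bases, the read length, in the last 500 bases of its annotated transcripts also occur in other genes (*Ftl1-ps1*, *Ftl1-ps2*, *Ftl2-ps*, *Gm12164*, *Gm15590*, *Gm22133*). Reads that align to several places were not assigned to genes, 24.0 to 37.3% of alignments per library. Its values are therefore uncertain, and were 0, 0, 20.7 and 10.5 CPM in the 4 sham libraries at 12 h. On day 7 *Ftl1* measured 10.4, 10.7, 46.4, 17.8 and 10.02 CPM in MCAO and 2.29, 0.933, 1.64 and 0 CPM in sham. The groups did not overlap, from 170 reads against 9, a ratio of 16.5 (95% interval 8.49 to 36.7), and the log2 fold change was 3.97 ± 0.90 (adjusted p = 0.00312). This sham group was itself the lowest of the series, at −2.30 ± 1.01 against control (adjusted p = 0.589), and MCAO on day 7 against control was 1.67 ± 0.72 (adjusted p = 0.231). The call was lost without MCAO replicate C (3.34, adjusted p = 0.0223) and without sham B or D (3.88 and 3.51, adjusted p = 0.0148 and 0.0252).

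**Figure D2:**
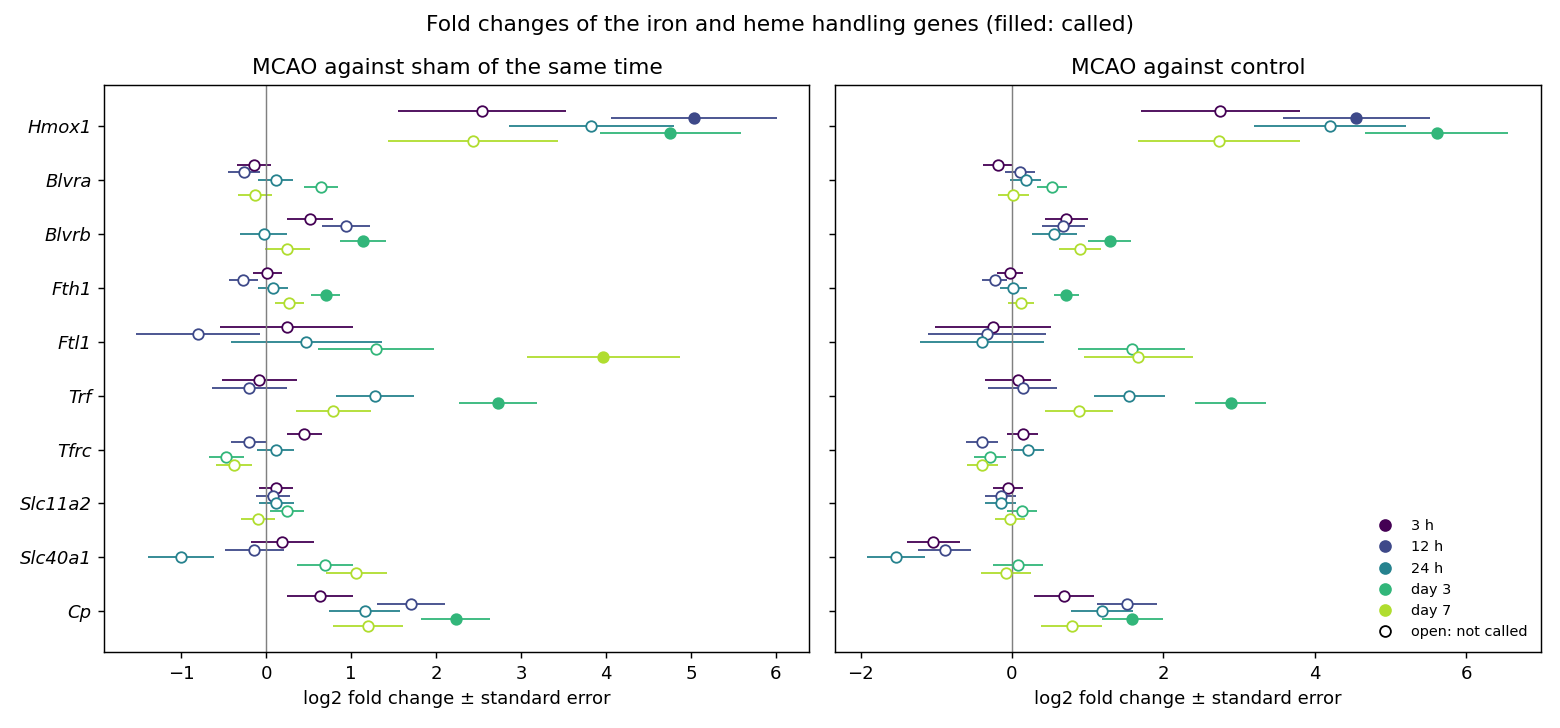
Log2 fold change of the 10 genes after MCAO against sham of the same time (left) and against control (right), with 1 colour per time, bars of 1 standard error, and filled points for called genes. *Hmox1*, *Trf* and *Cp* have the largest filled day 3 values against sham, 4.76, 2.73 and 2.23, and *Ftl1* is filled only on day 7 against sham.

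Transferrin had, after *Hmox1*, the largest called rise of the set on day 3. *Trf* (chr9:103204001-103230444, − strand) had sham group means of 78.7 to 93.2 CPM and a control mean of 73.3 ± 17.9 CPM (SD, n = 4). At 3 h and 12 h its log2 fold changes against sham were −0.08 and −0.20. At 24 h MCAO measured 134, 91.1, 159 and 479 CPM and sham 76.6, 118, 105 and 55.1 CPM, a log2 fold change of 1.28 ± 0.46 (adjusted p = 0.32), and 0.54 without replicate D (adjusted p = 0.812). On day 3 MCAO measured 53.9, 453, 672, 923 and 620 CPM and sham 89.2, 120, 52.3 and 67.0 CPM. Replicate A was at the sham level, and the other 4 lay above every non-MCAO library. The log2 fold change was 2.73 ± 0.46 (adjusted p = 5.29e-05), 3.02 without replicate A, and the call stood without each library in turn (2.45 to 3.02). On day 7 MCAO measured 131, 131, 115, 102 and 201 CPM, all above the sham range of 70.7 to 86.3 CPM, with a log2 fold change of 0.79 ± 0.44 (adjusted p = 0.278). Another annotated gene on the same strand, *Gm20425*, holds 29.5% of the *Trf* windows and had 0 reads.

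In bulk tissue a change in the number of cells of a type and a change in RNA per cell cannot be told apart. Markers of oligodendrocytes were set beside *Trf* for this reason. None of 8 such markers was called on day 3 against sham (median log2 fold change 0.62). The highest was *Cldn11*, a tight junction gene of myelin, at 1.39 ± 0.38 (adjusted p = 0.0127). The summed level of the 8 markers was 1689, 3624, 3508, 4927 and 3366 CPM in MCAO replicates A to E, and 1702 to 3931 CPM in sham. Per 100 CPM of these markers, *Trf* measured 2.20 to 4.86 CPM in all 24 non-MCAO libraries. On day 3 it measured 3.19 CPM in replicate A and 12.5, 19.2, 18.7 and 18.4 CPM in B to E. At 12 h it was 3.00 to 7.11 CPM after MCAO, with 3 of 5 libraries above the highest library without occlusion, although *Trf* itself was not higher. The summed marker level at 12 h was 946 to 2035 CPM after MCAO (median 1541 CPM) and 1695 to 3836 CPM in sham (median 2636 CPM). The ratio therefore also moves with its denominator. At 24 h the range was 5.56 to 9.63 CPM, and replicate B had 7.70 CPM with *Trf* at 91.1 CPM, inside the sham range. On day 7 it was 3.41 to 6.21 CPM. This ratio was chosen after the values were seen and was not tested.

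**Figure D3:**
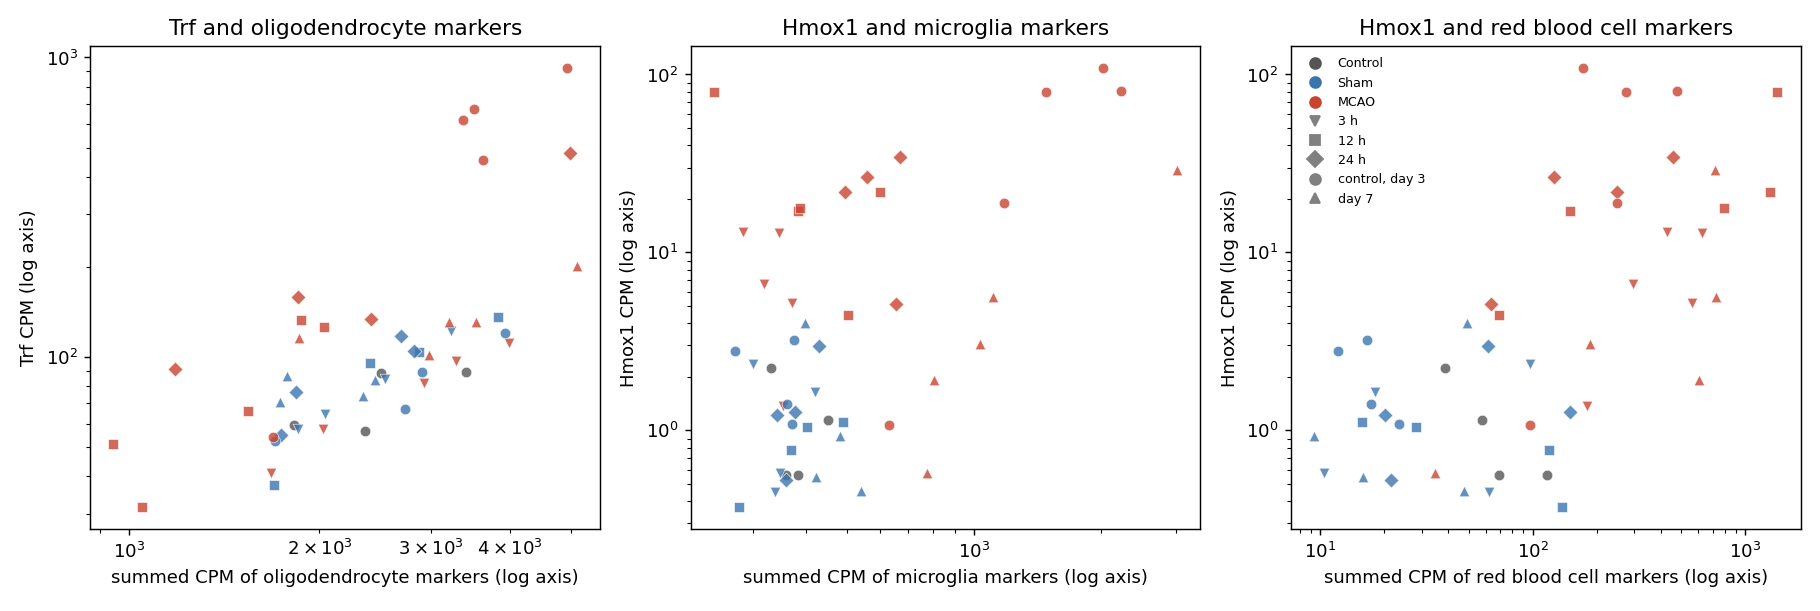
*Trf* CPM against the summed CPM of 8 oligodendrocyte markers (left), and *Hmox1* CPM against the summed CPM of microglia (middle) and red blood cell (right) markers, on log axes, 1 point per library. The day 3 MCAO points other than replicate A, from 453 to 923 CPM of *Trf*, lie above the other libraries with like marker sums, and the highest *Hmox1* point at 12 h, 79.3 CPM, has the lowest microglia sum of its group.

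The import genes showed no call in any comparison. *Tfrc* (chr16:32608920-32632794, + strand) measured 72.6, 61.9, 43.5, 45.9 and 56.9 CPM in MCAO on day 3 and 81.6, 74.8, 72.4 and 82.9 CPM in sham. Replicate A lay just inside the sham range and the other 4 below it, with a log2 fold change of −0.47 ± 0.21 (adjusted p = 0.164). At 3 h it was 0.45 ± 0.21 (adjusted p = 0.553), and on day 7 −0.38 ± 0.21 (adjusted p = 0.273). *Slc11a2* (chr15:100387898-100425072, − strand) had group means from 36.4 to 47.9 CPM in all 11 groups. Its log2 fold changes against sham ranged from −0.10 to 0.24.

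The exporter *Slc40a1* (chr1:45908068-45926523, − strand) was called by edgeR in no comparison and in no step between times. Control libraries measured 16.2, 10.1, 10.2 and 12.0 CPM, and sham group means were 5.12 to 8.33 CPM. Every sham library at 3 h, 12 h, 24 h and day 7 was below every control library, and so was every MCAO library at 3 h, 12 h and 24 h, with no call by edgeR. These comparisons all rest on the same 4 control libraries, and how many of all genes lie apart in this way was not counted. Control A, with the highest *Slc40a1* of them, had summed choroid plexus markers of 502 CPM, against 0.571 to 6.18 CPM in the other controls. The part of that tissue in comparisons with control was not tested. At 24 h MCAO measured 3.82, 4.21, 6.36 and 1.83 CPM and sham 8.91, 7.59, 7.93 and 8.91 CPM. The groups did not overlap. The level was 0.502-fold that of sham (adjusted p = 0.404), and the log2 fold change against control was −1.53 ± 0.38 (adjusted p = 0.0363, and 0.00995 in DESeq2). On day 3 MCAO measured 6.41, 11.3, 14.5, 18.1 and 13.7 CPM and sham 10.9, 7.85, 9.34 and 3.28 CPM, a log2 fold change of 0.69 ± 0.33 (adjusted p = 0.214). On day 7 it was 1.06 ± 0.36 (adjusted p = 0.0518). The MCAO effect on day 3 minus that at 24 h was 1.69 ± 0.52 on the log2 scale (adjusted p = 0.344).

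*Cp* (chr3:19957054-20009145, + strand) had sham group means of 11.5 to 18.8 CPM. At 12 h MCAO measured 33.0, 41.3, 77.2, 29.4 and 76.8 CPM and sham 10.6, 26.1, 17.8 and 8.96 CPM. All 5 MCAO libraries were higher, with a log2 fold change of 1.70 ± 0.40 (adjusted p = 0.0168 with edgeR, 0.00541 with DESeq2, and 0.000784 without a filter on low counts). At 24 h MCAO measured 43.3, 42.1, 27.1 and 51.3 CPM, all above the sham range of 14.5 to 20.1 CPM, at 1.16 ± 0.42 (adjusted p = 0.313). On day 3 MCAO measured 17.1, 34.3, 122, 22.0 and 74.5 CPM and sham 10.2, 8.77, 16.8 and 10.3 CPM. The groups did not overlap, though replicate A was close to the highest sham library. The log2 fold change was 2.23 ± 0.41 (adjusted p = 0.000166), 1.69 to 2.46 with each library left out in turn, and the call stood each time. With only the 2 groups in the fit it was 2.21 (adjusted p = 0.0165). Against control it was 1.59 ± 0.40 (adjusted p = 0.00762), and that call was lost without MCAO C (1.06, adjusted p = 0.11), MCAO E (1.45, 0.0317) or control B, C or D (1.44, 1.55 and 1.56, adjusted p = 0.0446, 0.0305 and 0.0311), with spike-in scaling (1.20, adjusted p = 0.0314) and with only the 2 groups in the fit (1.59, adjusted p = 0.075). On day 7 it was 1.20 ± 0.41 against sham (adjusted p = 0.0569). *Cp* overlaps *Hps3* and *Slc11a2* overlaps *Gm5475*, each on the opposite strand, and the strand setting of the counting was not given in the sources used here.

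Markers of other cells moved with several of these genes. On day 3, 6 of 8 microglia markers and 4 of 7 macrophage and monocyte markers were called higher against sham. So were 2 of 6 neutrophil, 3 of 5 fibroblast, 2 of 7 endothelial and 2 of 8 astrocyte markers, and 1 of 8 neuron markers was called lower. The summed microglia level was 628 to 2231 CPM after MCAO and 273 to 375 CPM in sham, that of macrophages and monocytes 32.0 to 1051 and 13.1 to 26.7 CPM, and that of neutrophils 6.41 to 623 and 0 to 2.77 CPM. MCAO replicate A, lowest in all 3 sums, was also lowest of its group in *Hmox1*, *Fth1*, *Trf*, *Cp*, *Blvrb* and *Slc40a1*. It was lowest too in the oligodendrocyte, endothelial and red blood cell sums (1689, 297 and 96.6 CPM), and not in those of neurons, astrocytes or fibroblasts. The part of these cells in the result was not tested. At 12 h the *Hmox1* rise stood beside microglia sums of 243 to 599 CPM after MCAO and 278 to 490 CPM in sham (1 of 8 markers called lower). Macrophage and monocyte sums were 20.9 to 191 CPM against 10.5 to 25.5 CPM, with 4 of 5 MCAO libraries above all sham libraries and 0 of 7 markers called. Neutrophil sums were 11.5 to 1703 CPM against 1.68 to 3.33 CPM, with 2 of 6 markers called higher. In replicate C, with the highest *Hmox1*, the microglia sum was 243 CPM, the macrophage and monocyte sum 83.5 CPM and the neutrophil sum 169.5 CPM.

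Red blood cell markers, hemoglobin genes among them, were called higher after MCAO at 12 h, day 3 and day 7. Their sum was 179.5 to 623 CPM at 3 h against 10.4 to 97.3 CPM in sham, with 0 of 5 markers called. At 12 h it was 69.3 to 1412 CPM against 15.6 to 137 CPM, with 1 of 5 called, and at 24 h 63.3 to 456.5 CPM against 20.1 to 149 CPM, with 0 of 5 called. On day 3 it was 96.6 to 475 CPM against 12.2 to 23.6 CPM, with 3 of 5 markers called higher, and on day 7 34.6 to 724 CPM against 9.33 to 49.2 CPM, with 4 of 5. At 12 h the libraries A to E, with *Hmox1* at 4.45, 17.0, 79.3, 21.8 and 17.9 CPM, had red blood cell sums of 69.3, 150, 1412, 1305 and 795 CPM. The lowest library was the same in both at each time, and the highest at 12 h and 24 h only. On day 3 the highest *Hmox1*, 109 CPM in replicate E, stood beside a sum of 173 CPM. The highest sum of that group, 475 CPM, was in C. On day 7 the highest *Hmox1*, 29.2 CPM in C, stood beside 715 CPM. The highest sum there, 724 CPM, was in E, with *Hmox1* at no more than 5.64 CPM. Whether blood left in the tissue has a part in this was not tested.

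Beyond the set, 49 other iron and heme genes were examined in 9 lists, of which 46 had enough counts to be tested (*Ftmt*, *Hamp* and *Hamp2* had 0 or 1 read). Against sham, none was called at 3 h, 12 h or 24 h, and DESeq2 called 0 at each time. An unadjusted p under 0.05 was found for 4, 8 and 3 of 46, and for 1688, 2917 and 1757 of all 19970 genes. *Lcn2* had log2 fold changes of 3.47 ± 0.88 at 12 h (adjusted p = 0.0303) and 4.20 ± 1.12 at 24 h (adjusted p = 0.106). It was called without a filter on low counts at both times (adjusted p = 0.00191 and 0.00758), and at 24 h with only the 2 groups in the fit (adjusted p = 0.00229). On day 3, 3 of 46 were called, all higher, and on day 7 1 higher and 1 lower, where 4.02% and 3.50% of all genes were called. The share on day 3, 3 of 46, was close to that background. Against control, 1 of 46 was called on day 3, *Lcn2*, and 0 on day 7, where 3.10% and 1.50% of all genes were called. No gene of the lists of heme synthesis (9 tested), iron import and reduction (7), and iron storage and ferritin turnover (3) was called in any of the 5 comparisons with sham.

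The 3 called on day 3 were 2 of 9 tested in the list of iron and heme sensing, *Hfe* and *Bach1*, and 1 of 3 in that of siderophores and lactoferrin, *Lcn2*. *Hfe*, which adjusts hepcidin to iron, measured a mean of 11.8 ± 6.56 CPM after MCAO (SD, n = 5) and 1.38 ± 0.642 CPM in sham (n = 4). All MCAO libraries were higher, at a log2 fold change of 3.03 ± 0.61 (adjusted p = 0.000587). *Bach1*, a heme-binding repressor of *Hmox1*, measured 14.9 to 28.5 CPM after MCAO and 3.75 to 9.81 CPM in sham, at 1.39 ± 0.31 (adjusted p = 0.00204). Its call was lost without MCAO C (1.26, adjusted p = 0.0128), without sham D (1.17, adjusted p = 0.0219) with scaling to the spike-in RNAs (1.12, adjusted p = 0.0154) and with only the 2 groups in the fit (1.38, adjusted p = 0.015). *Lcn2*, which binds iron-loaded siderophores, measured 0 to 82.4 CPM after MCAO and 0 to 2.18 CPM in sham, at 4.93 ± 0.92 (adjusted p = 0.0002, and 0.0121 with only the 2 groups in the fit). On day 7 *Lrp1*, the receptor for hemopexin-bound heme, was higher at 0.69 ± 0.16 (adjusted p = 0.00466), with MCAO at 190 to 406 CPM and sham at 118 to 173 CPM. It fell to 0.44 without MCAO replicate C (adjusted p = 0.0675), and its call was also lost without sham B or D (0.58 and 0.68, adjusted p = 0.0362 and 0.0196), with spike-in scaling (0.72, adjusted p = 0.0128) and with only the 2 groups in the fit (0.69, adjusted p = 0.0663). *Slc25a37*, which carries iron into mitochondria, was lower at −0.89 ± 0.21 (adjusted p = 0.00464), with MCAO at 24.2 to 39.9 CPM and sham at 47.97 to 75.3 CPM. The call was lost without MCAO A or D (−0.80 and −0.88, adjusted p = 0.0166 and 0.0103), without sham A or D (−0.86 and −0.78, adjusted p = 0.0146 and 0.0387), with spike-in scaling (−0.78, adjusted p = 0.018) and with only the 2 groups in the fit (−0.89, adjusted p = 0.0121). Neither gene was called against control on day 7. With each library left out in turn, *Lrp1* was there at −0.03 to 0.30 and *Slc25a37* at −0.54 to −0.34. The day 7 sham itself was at −0.53 to −0.36 and at 0.35 to 0.55 against control.

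**Figure D4:**
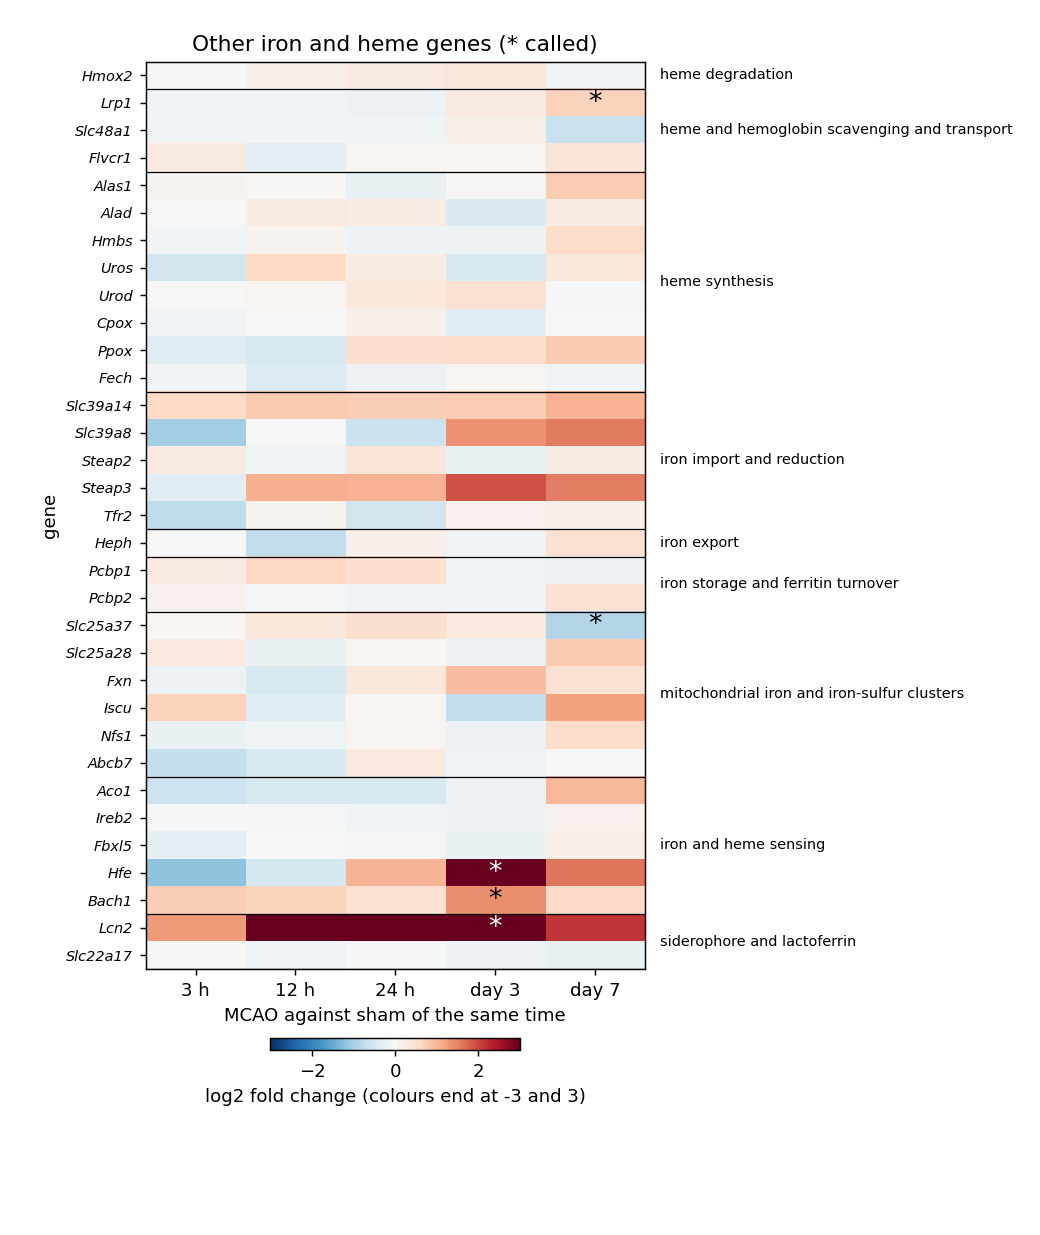
Log2 fold change after MCAO against sham of the same time for the other iron and heme genes with at least 200 reads in 48 libraries, 1 row per gene in its list and 1 column per time, red for higher and blue for lower, with asterisks on called genes and colours that end at −3 and 3. The asterisks stand on *Hfe*, *Bach1* and *Lcn2* on day 3 and on *Lrp1* and *Slc25a37* on day 7.

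The genes whose levels ran most alike across the 48 libraries were named for each member called against sham, by Pearson's r over 11715 genes with a mean of at least 5 CPM, and these libraries share the split between MCAO and the rest. *Hmox1* ran most like *Stat3* (r = 0.90), *Tagln2* (0.89) and *Tubb6* (0.88). *Cp* ran most like *Stat3* (0.87), *Adamts1* (0.87) and *Tgm2* (0.85). *Trf* ran most like *Klk6* (0.91), *Cldn11* (0.90) and *Prr5l* (0.86). *Fth1* ran with *Gpx1* (0.85), *P4hb* (0.82) and *Map4k4* (0.82), *Ftl1* with *Cbfb* (0.88), *Ctsl* (0.85) and *Pfn1* (0.84), and *Blvrb* with *Cd63* (0.73), *Cebpa* (0.71) and *Plek* (0.71).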

How the data were processed

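RNA of 48 libraries in 11 groups was sequenced from the 3′ end as single 85-base reads. The authors trimmed reads with TrimmomaticSE, removed ribosomal reads with SortMeRNA, aligned with STAR 2.5.2b to GRCm38 with the ERCC spike-in sequences and counted with htseq-count (union mode, Gencode vM8). What the authors deposited are unscaled counts, 1 table per library, and reads that aligned to several places were not counted. Rows for unassigned reads (median 23.5% without a feature) and for spike-ins (3.71 to 5.97%) were kept out of library sizes. A table of log2 values of the whole series was not used here.

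Counts of genes above a total of 10 were scaled by TMM and fitted with edgeR 4.0.16 (glmQLFit, glmQLFTest) as group means over all 48 libraries, with 15 comparisons and 4 differences between times. SEs are the absolute log2 fold change over the square root of F. Alternatives were DESeq2 1.42.0, its size factors, 2 other filters, spike-in scaling, the replicate letter as a block, only the groups compared, and each library left out. The biological coefficient of variation was 24.9%, and counts of a few reads per library limit *Hmox1* and *Ftl1*. Intervals of read ratios are 95% exact intervals of pooled counts and cover counting error only. Tested on simulated data for day 3 against sham over 19970 genes, the fit recovered 36% of genes changed by 1 and 97% of those changed by 2 on the log2 scale, and called 0 unchanged genes. The simulation gave all genes the same dispersion, held no outlying library and changed 200 genes with a mean of at least 5 CPM. Its shares therefore do not describe genes with few reads in a group, such as *Hmox1*, or groups with an outlying library.

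The 10 genes and all gene lists were chosen with earlier results of these data known. Other iron genes were named when called against sham, and similar genes were the 3 with the highest r of log2(CPM + 1) for each member called against sham. Sequence came from GRCm38 with Gencode vM21.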

Additional observations from a re-analysis of the deposited data

Results flagged for a closer look

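Of 110 sets of 4 or 5 libraries (10 genes in 11 groups), 10 held a library far from the others by Dixon's criterion, and chance alone gives about 1 in 20. MCAO day 7 replicate C accounted for 4 of them. It measured 29.2 CPM of *Hmox1* (the other 4 libraries 0.577 to 5.64), 2709 CPM of *Fth1* (1855 to 2101), 46.4 CPM of *Ftl1* (10.02 to 17.8) and 63.1 CPM of *Cp* (16.3 to 27.6). The same library had the highest macrophage and monocyte sum of its group, 4113 CPM, and the highest fibroblast sum, 5454 CPM, and their part in these values was not tested.

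MCAO 12 h replicate C measured 79.3 CPM of *Hmox1* where the other 4 libraries had 4.45 to 21.8, and its red blood cell sum of 1412 CPM was the highest of its group. MCAO 24 h replicate D measured 2772 CPM of *Fth1* against 1711 to 1752. Of the sham libraries, day 7 replicate A measured 4.01 CPM of *Hmox1* against 0.456 to 0.933, a value from 7 reads. Sham day 7 replicate C measured 8.72 CPM of *Slc40a1* against 4.01 to 4.67, and sham 3 h replicate B 26.5 CPM of *Cp* against 15.2 to 17.0. Sham day 3 replicate D measured 53.4 CPM of *Slc11a2* against 35.0 to 37.4.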

How the results depend on the processing

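No called log2 fold change of a member changed sign under any alternative, and of 3098 alternative values of members not called 129 changed sign, all where the reported size was at most 1.04. DESeq2's size factors and edgeR's own filter kept each member's side of the threshold. Without a filter on low counts, 2 members were called at 12 h and 1 at 24 h, against sham and against control alike. All genes called rose as well, against sham from 82 to 171 at 12 h and from 18 to 55 at 24 h. Against control they rose from 171 to 255 and from 56 to 103. With spike-in scaling, 3 members were called on day 3 against sham and 2 against control, where the median of all genes was at −0.22 and −0.28. All genes called on day 3 were then 594 against sham and 694 against control, where the main fit called 802 and 619. With only the groups compared in the fit, 0 members were called at 12 h, 1 at 24 h and 2 on day 3 against sham, and 1 at 24 h and 2 on day 3 against control. All genes called in these comparisons were 13, 51 and 339 against sham, and 126 and 224 against control. DESeq2 called 2 members at 12 h against sham and 2 at 24 h against control. It called 179 and 120 of all genes there, where edgeR called 82 and 56. The causes of these changes were not tested.

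With each library left out in turn, the members called ranged from 0 to 2 at 12 h, 3 to 5 on day 3 and 0 to 1 on day 7 against sham, and from 0 to 1 at 12 h and 2 to 5 on day 3 against control. All genes called against sham ranged from 21 to 102 at 12 h, 441 to 1353 on day 3 and 241 to 676 on day 7. Against control they ranged from 71 to 171 at 12 h and 364 to 1075 on day 3. At 12 h *Cp* was called without MCAO replicate D (1.84, adjusted p = 0.0073 in edgeR). *Hmox1* and *Trf* on day 3 stayed called in all these fits against sham and control, and *Cp* against sham.

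Of 20 pairs of MCAO and sham libraries with the same replicate letter, 5 had deviations that correlated over 0.1. All 20 correlations lay between −0.26 and 0.15. Pairs with different letters were not compared, so this cannot decide whether the letters pair the libraries. With the letter as a replicate block, 3 members were called on day 3 against control, with *Fth1* at 0.66 (adjusted p = 0.0107) and *Cp* (adjusted p = 0.021) not called, and *Fth1* against sham was at 0.63 (adjusted p = 0.013). All genes called on day 3 with this block were 494 against control and 644 against sham. Few reads limit *Hmox1* in control and sham, and *Ftl1* and *Slc40a1* throughout.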
